A study of Mus musculus with 12 samples.

Results

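The genes described here are the liver X receptors (LXRs) Nr1h2 and Nr1h3 and 6 genes of sterol efflux and uptake that LXRs are known to control or that act beside them: Abca1, Abcg1, Abcg4, Mylip, Apoe and Lpcat3. A gene was taken when a probe set (called a row here) carried its symbol and no other in the array's platform annotation. Of the 8 genes, 7 had a row, and each had exactly 1, out of 19938 genes with a row of their own and 35556 rows in all. Nr1h2 was not analysed here. The 12 arrays came from Min6 cells, an insulinoma-derived mouse beta cell line. Each array gives 1 log2 expression value per row, as the authors deposited it, and 1 log2 unit is a 2-fold difference.

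Each of the 3 culture conditions had 4 arrays, and culture ran in 3 periods of 5 days. In the classic condition (CC) cells were kept throughout in DMEM with 15% fetal calf serum and 2-mercaptoethanol at 20% oxygen. In the defined condition (DC) the last 10 days were spent without serum at 5% oxygen, in DMEM-F12 with apo-transferrin (100 µg/mL), progesterone (20 nM), putrescine (100 µM) and selenite (30 nM). In the return condition (RC) cells had 5 days in that serum-free medium and then 5 days in serum again at 20% oxygen. Penicillin and streptomycin were in both media. Serum, which carries lipoprotein cholesterol, was thus removed together with a fall in oxygen and a change of base medium and supplements, and the parts of these changes cannot be told apart. RC and DC also differ in the number of serum-free days. The arrays are quadruplicates of a single experiment, so a p-value here reflects only how far these samples spread, which may be technical, and precision is limited by there being 4 arrays a group.

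LXRs are nuclear receptors that bind oxysterols, the oxidised forms of cholesterol that build up when a cell holds more sterol than it needs. Paired with a retinoid X receptor, they switch on genes that export cholesterol to lipoproteins, block its uptake and remodel membrane lipids. SREBP-2 works from the other side, switching on sterol synthesis and uptake when sterol in the endoplasmic reticulum is low, so the 2 programmes usually run in opposite directions. In beta cells the cholesterol content of membranes and granules is known to affect insulin secretion, and loss of Abca1 or Abcg1 impairs it.

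The arrays carried a beta cell profile. Of 11 measured beta cell markers 10 lay above the median of all values, 7.99, among them Ins2 at 13.03 in CC, and 0 of the 11 passed the test in any comparison. Macrophages also express Abca1, Abcg1 and Apoe strongly. Of 8 macrophage markers 1, the lysosomal protein gene Cd68, lay above that median, and 4 lay below the lower quartile of all values. The mean of the macrophage list ran from 6.93 to 7.06 over the CC arrays, 7.09 to 7.16 over DC and 7.03 to 7.29 over RC, and 0 of 8 members passed in any comparison. Of 7 fibroblast markers 3 lay above the median and of 4 endothelial markers 0 did, and 0 of either list passed. Arrays DC 2, DC 4 and RC 3 had the narrowest interquartile ranges (2.47, 2.44 and 2.42, against 2.57 to 2.75 for the rest), and RC 3 correlated least with its own group (0.976, against 0.989 or more for every other array). In RNA from whole cultures, fewer cells of a type and less RNA per cell cannot be told apart.

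Under serum-free culture at low oxygen the sterol exporter Abca1 and the receptor-degrading ligase Mylip rose, and the other 5 genes did not pass. Abca1 rose by 0.67 ± 0.09 log2 units (SE; n = 4 in each group; 1.59-fold) and Mylip by 0.62 ± 0.08 (1.54-fold). The receptor Nr1h3, the transporters Abcg1 and Abcg4, the lipoprotein gene Apoe and the acyltransferase Lpcat3 did not pass, with differences between -0.07 and 0.11. Thus 2 of 7 genes were higher in DC than in CC and 0 lower, where 6.64% of all rows were called, 2.31% higher and 4.32% lower (limma, Benjamini-Hochberg adjusted p under 0.05 over all rows). The median difference of the 7 genes was 0.10, beside 0.04 over all rows.

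After the return to serum and 20% oxygen the same 2 genes were lower than in DC. Abca1 fell by 0.80 ± 0.09 (1.74-fold) and Mylip by 0.37 ± 0.08 (1.30-fold). Of the other 5, Lpcat3 (-0.30 ± 0.09) and Abcg1 (-0.27 ± 0.09) had 95% intervals below 0 but did not pass after adjustment. So 2 of 7 were lower and 0 higher, where 2.63% of all rows were called, 1.18% lower and 1.45% higher, and the median difference was -0.27, beside -0.01 over all rows. The 2 comparisons share the DC arrays and are not independent. Between RC and CC, 0 of 7 passed in limma (0.796% of all rows did; 3220 rows had an unadjusted p under 0.05). The groups did not overlap for 3 of 7, where 7.94% of all rows did not overlap. The median difference was 0.00, beside 0.03 over all rows.

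**Figure D1:**
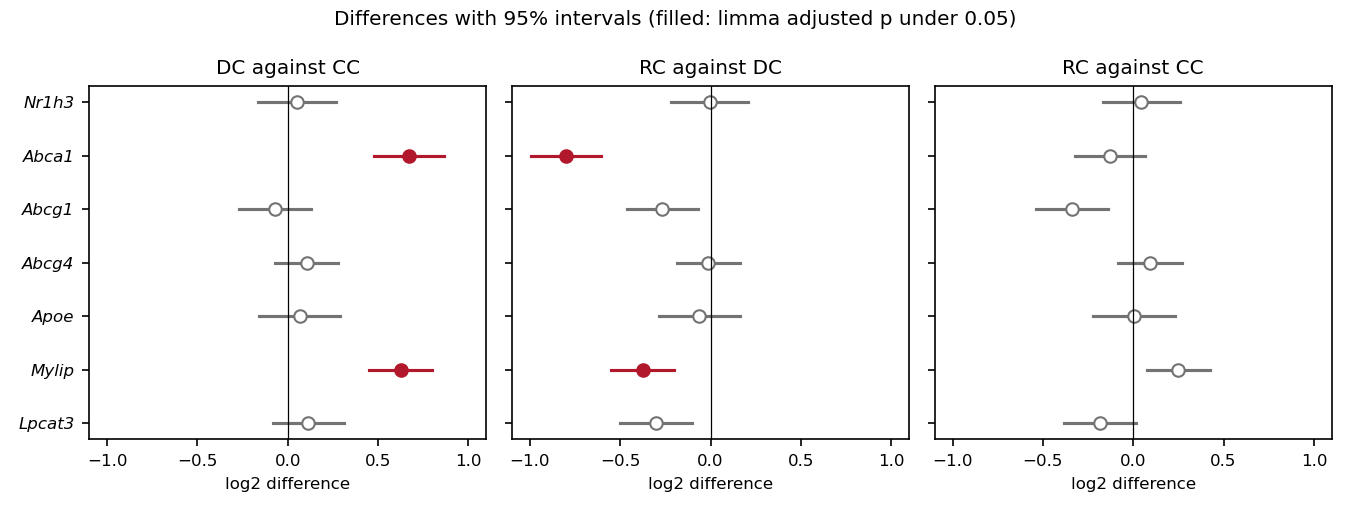
Log2 difference of each gene (horizontal axis, in log2 units) between the named conditions, with limma's 95% interval as a line; filled red marks are adjusted p under 0.05. Abca1 and Mylip are filled to the right of 0 for DC against CC and to the left for RC against DC, and no gene is filled for RC against CC.

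Nr1h3 encodes LXR-alpha, the receptor whose level is highest in liver, gut and macrophages. Its row was the only one of the 7 below the median of all values. It read 7.39, 7.30, 7.54 and 7.51 on CC 1 to 4, 7.24, 7.65, 7.41 and 7.64 on DC 1 to 4, and 7.42, 7.49, 7.63 and 7.39 on RC 1 to 4. The 3 conditions overlapped throughout, with group means of 7.44 ± 0.11, 7.49 ± 0.20 and 7.48 ± 0.11 (SD, n = 4). For the DC minus CC difference limma's 95% interval was -0.16 to 0.27. It was -0.22 to 0.21 for RC minus DC and -0.17 to 0.26 for RC minus CC, so changes up to about these sizes would not have been resolved. Its 3 highest values were those of the 3 arrays with narrow interquartile range, DC 2, DC 4 and RC 3. With that range as a covariate the DC difference was -0.11 ± 0.05 (SE; limma adjusted p = 0.33). It was also below 0 with quantile normalization (-0.02), so no direction is given.

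Abca1 encodes the transporter that hands cholesterol and phospholipid to lipid-poor apolipoprotein A-I, the first step of HDL formation. It is a direct LXR target, known to be bound through a direct repeat of the nuclear receptor hexamer with a 4-base spacer (DR4) close to its start. RefSeq promoter windows of 300 bases (250 before to 50 after an annotated start, GRCm38.p6) were on hand for 6 of the 8 genes, 9 windows in all. No window held the ideal DR4, 2 copies of AGGTCA with 4 bases between, on either strand, and 0.0152% of the 32851 windows of all genes did. The hexamer AGGTCA alone was in none of the 9 and in 16.3% of all windows. The Abca1 window held the E-box CACGTG, which reads the same on both strands and contains ACGTG, the core of the hypoxia response element. CACGTG was in 7.15% of all windows and ACGTG in 19.6%, and neither was in the other 8. The sequences below are shown because Abca1 and Mylip are the genes that moved; all run 5′ to 3′ on the gene's own strand, with capitals for the motif named.
Abca1, chr4:53159989-53160145, minus strand, from -250 to -94 of the start, E-box in capitals: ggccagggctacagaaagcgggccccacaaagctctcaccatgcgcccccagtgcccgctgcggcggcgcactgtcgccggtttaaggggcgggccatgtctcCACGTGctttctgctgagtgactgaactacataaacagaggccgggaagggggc
Abca1, chr4:53159940-53159969, minus strand, closest match to the DR4 in capitals: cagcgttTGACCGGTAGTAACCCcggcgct
Abca1, chr4:53159907-53159936, minus strand, TATAAA in capitals: cacagccgaatcTATAAAaggaactagtcg
Mylip, chr13:45389698-45389727, plus strand, TATAAA in capitals: gggcggggcctcTATAAAagacgcgtgcct
The closest DR4 match in Abca1 begins at -67, lies on the opposite strand and shares 9 of 12 fixed letters with the ideal repeat. A match of 9 or more is common, in 21.9% of all windows, and the other 8 windows reached 7 or 8. TATAAA, searched on both strands after the sequences had been seen, begins at -29 in Abca1 and at -32 in Mylip, was also in 1 of the 3 Apoe windows, and was in 13.6% of all windows. These matches describe letters only, and whether any of them is a site in use was not tested.

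Abca1 read 8.41, 8.43, 8.54 and 8.54 on CC 1 to 4, 9.11, 9.14, 9.43 and 8.93 on DC 1 to 4, and 8.36, 8.39, 8.33 and 8.32 on RC 1 to 4. All DC arrays lay above all others, by at least 0.38 over CC and 0.54 over RC. DC against CC gave a limma adjusted p = 0.00057 and RC against DC 0.00033, and groups that do not overlap were found for 15.3% and 6.29% of all rows in these comparisons. The RC arrays sat just under the CC arrays, with a gap of 0.02 between the groups and a difference of -0.13 (95% interval -0.32 to 0.06; adjusted p = 0.73). The order of the means was therefore DC, CC, RC, with the last 2 not called apart. The exact two-sided permutation p was 0.0286 in each of the 3 comparisons, the smallest that 4 arrays against 4 allow.

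Abcg1, which moves sterol to HDL and within the cell and is known to shape the sterol content of insulin granules, was not called in any comparison. Its DC mean lay near CC, where that of Abca1 was higher, and its RC mean lay below both DC and CC, as that of Abca1 did. It was almost identical on the 4 CC arrays (10.72, 10.71, 10.72 and 10.72), spread over 10.62, 10.70, 10.88 and 10.39 on DC 1 to 4, and stood at 10.23, 10.45, 10.44 and 10.41 on RC 1 to 4. The DC arrays lay on both sides of the CC values, and every RC array lay under every CC array by at least 0.26. DC against CC was -0.07 ± 0.09 (95% interval -0.27 to 0.13), an interval that ends below that of Abca1 (0.48 to 0.86); the difference between the genes was not tested. RC against CC was -0.34 ± 0.09 (1.26-fold) with a limma adjusted p = 0.14 and an unadjusted exact permutation p = 0.0286. Groups that do not overlap always give this permutation p, and 7.94% of all rows did not overlap. With array weights the RC against CC difference of Abcg1 passed (limma adjusted p = 0.0074). RC against DC (adjusted p = 0.21) passed with array weights (0.027) or without DC 4 (0.033).

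Abcg4, the close relative of Abcg1 known from neurons and astrocytes, stayed within 8.11 to 8.44 on all 12 arrays. CC 1 and CC 2 (8.11 and 8.13) were the lowest, CC 3 and CC 4 (8.36 and 8.37) lay near the top, and DC 2, DC 4 and RC 3 (8.41, 8.43 and 8.44) were the highest, so all groups overlapped. The difference from CC was 0.10 ± 0.08 in DC and 0.09 ± 0.08 in RC, and RC differed from DC by -0.01 ± 0.08. None passed.

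Apoe encodes the apolipoprotein that accepts exported lipid and is a ligand for lipoprotein receptors. It read 9.13, 9.02, 9.19 and 9.21 on CC 1 to 4, 8.96, 9.36, 9.18 and 9.31 on DC 1 to 4, and 8.99, 9.17, 9.38 and 9.02 on RC 1 to 4. The groups overlapped in all comparisons, and the 3 highest arrays were again DC 2, DC 4 and RC 3. Its differences were 0.07 ± 0.10, -0.06 ± 0.10 and 0.00 ± 0.10 in the order used above. With the interquartile range as a covariate they were -0.10, -0.01 and -0.11, and none passed.

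Mylip, also called Idol, encodes the ubiquitin ligase that LXRs use to mark the LDL, VLDL and ApoER2 receptors for degradation. It read 9.06, 9.17, 9.09 and 9.12 on CC 1 to 4, 9.80, 9.85, 9.83 and 9.46 on DC 1 to 4, and 9.40, 9.35, 9.35 and 9.34 on RC 1 to 4. The 3 conditions did not overlap, and RC lay between the others, at least 0.17 above CC and 0.06 below DC. DC 4 was well under the other DC arrays, and without it the RC difference from DC was -0.47 (limma adjusted p = 0.00067). DC against CC had a limma adjusted p = 0.00045 and RC against DC 0.027. This last call ended without DC 1 (0.060), DC 2 (0.099), DC 3 (0.083), RC 1 (0.069), RC 2 (0.081) or RC 4 (0.085), and with the arrays on a common median (0.062). RC against CC was 0.25 ± 0.08 (1.19-fold; adjusted p = 0.25) and passed without DC 4 (0.043) or with array weights (0.017). The order of the means was DC, RC, CC, with RC and CC not called apart, whereas the mean of Abca1 in RC lay below CC.

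**Figure D2:**
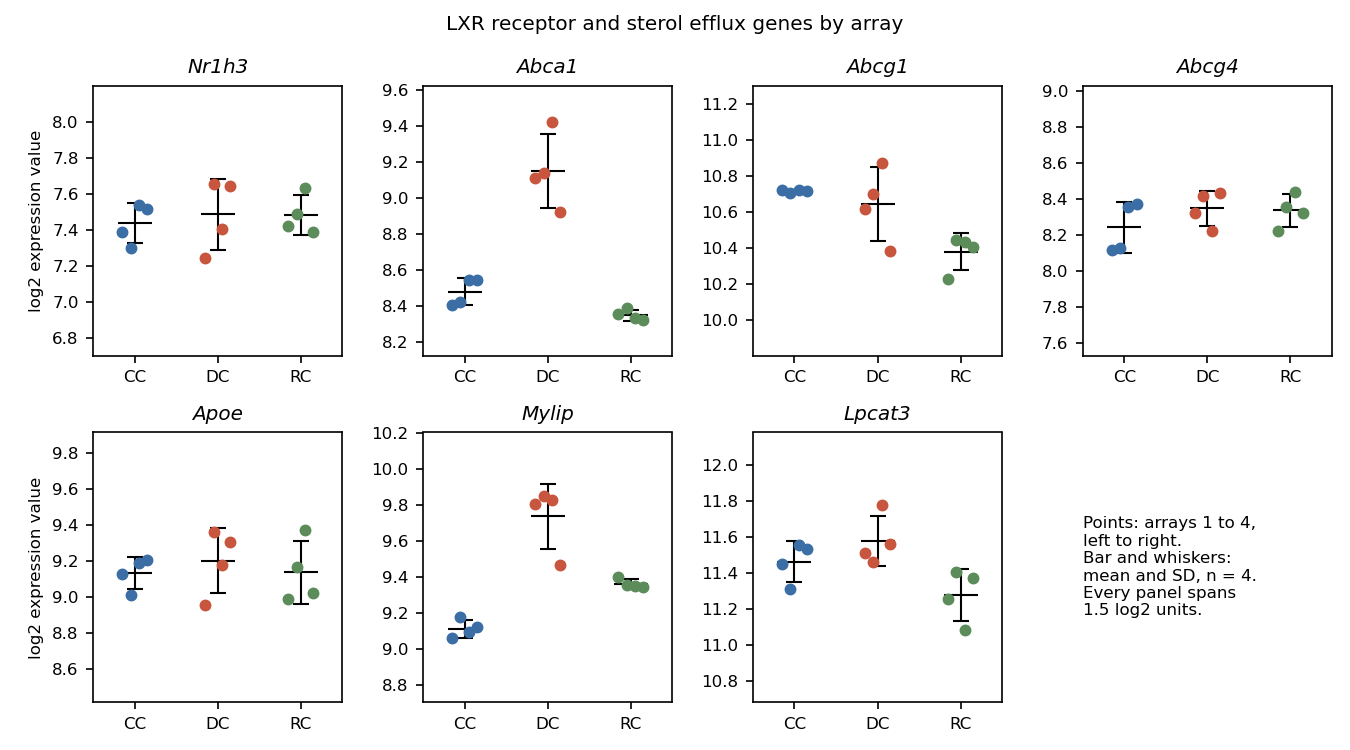
Log2 expression value (vertical axis) of each measured gene on every array of CC, DC and RC, with the group mean and SD (n = 4); each panel spans 1.5 log2 units. The DC points of Abca1 and Mylip stand above all others, Mylip in RC sits between CC and DC, and Abcg1 in RC sits under CC.

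Lpcat3 encodes the enzyme that puts polyunsaturated acyl chains into membrane phospholipids, and it is an LXR target. Its values were 11.45, 11.31, 11.56 and 11.53 on CC 1 to 4, 11.51, 11.46, 11.78 and 11.56 on DC 1 to 4, and 11.26, 11.40, 11.08 and 11.37 on RC 1 to 4. RC lay wholly under DC, by at least 0.06, and overlapped CC. RC against DC was -0.30 ± 0.09 (1.23-fold), with a limma adjusted p = 0.14 and an unadjusted exact permutation p = 0.0286. Groups that do not overlap always give this permutation p, and 6.29% of all rows did not overlap. The RC against DC difference of Lpcat3 passed with quantile normalization (0.048) and with array weights (0.047). DC against CC (0.11 ± 0.09) and RC against CC (-0.18 ± 0.09) did not pass.

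The other genes of the pathway were taken from lists, with the row of highest mean where a gene had several. The share of all rows called was 6.64% in DC against CC, 2.63% in RC against DC and 0.796% in RC against CC. Array weights called 4840, 6413 and 2818 of the 35556 rows in these comparisons. Among 8 measured partners and coregulators of LXR, 1 fell in DC, the corepressor complex subunit Gps2 (-0.30 ± 0.06; limma adjusted p = 0.0059), and 0 rose. The retinoid X receptors Rxra, Rxrb and Rxrg were at -0.12, -0.06 and 0.18 and did not pass. No member of that list passed in RC against DC, where Rxrg (-0.14) and the corepressor gene Nrip1 (-0.11) had the smallest p, or in RC against CC, where Rxrb (-0.17) and Gps2 (-0.19) did. With array weights, which called more rows in every comparison, Rxrg passed relative to DC (0.025) and Gps2 relative to CC (0.012). In DC against CC 1 of the 8 was higher with array weights, without RC 3 or among rows above the median. The Gps2 call ended with quantile normalization (0.057), without DC 2, DC 4 and RC 3 together (0.056), and with CC 1 and CC 2 alone or CC 3 and CC 4 alone as controls (0.060 and 0.061). Of 8 genes that make or clear oxysterols, 0 passed in any comparison in the unweighted limma fit to the deposited values of all arrays. With array weights 3 of the 8 were lower in RC than in DC, among them Cyp46a1 (0.045), and without DC 1 a single gene of the list was higher in DC than in CC. The smallest p of that list in DC was that of Cyp46a1, the 24-hydroxylase of neurons (0.19 ± 0.06; adjusted p = 0.13), followed by Cyp11a1 (0.30 ± 0.12; adjusted p = 0.17). Cyp46a1 passed with quantile normalization (0.048) and Cyp11a1 without RC 3 (0.031). For RC the smallest p were those of Cyp46a1 (-0.17) and the bile acid synthesis gene Hsd3b7 (0.30) relative to DC, and of the hydroxylase genes Ch25h (0.10) and Cyp7b1 (0.14) relative to CC. The list medians in DC were 0.02 and 0.14, beside 0.04 over all rows.

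Of 11 other genes listed as LXR targets, 3 rose in DC and 1 fell, where 2.31% of all rows were higher and 4.32% lower. The desaturase genes Scd1 (1.13 ± 0.12; 2.18-fold) and Scd2 (0.37 ± 0.09) rose with Srebf1 (0.43 ± 0.06; adjusted p = 0.00064), which encodes the lipogenic factor SREBP-1. These 3 also answer to SREBPs. Smpdl3a, a phosphodiesterase gene known as an LXR target of human macrophages, fell by 0.87 ± 0.11 (1.83-fold, limma adjusted p = 0.00038). Whether LXRs control it in mouse Min6 cells was not tested. The remaining 7, among them the exporter pair Abcg5 (0.15) and Abcg8 (0.19), the phospholipid transfer protein gene Pltp (0.22) and the lipase Lpl (0.28), did not pass. The list median was 0.19. Scd2 did not pass without any 1 of the 4 CC arrays, nor without DC 2, DC 3 or DC 4 (adjusted p of 0.054 to 0.10).

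The same 4 genes were called in the opposite direction in RC against DC, which shares the DC arrays. Scd1 was at -0.97 ± 0.12, Srebf1 at -0.73 ± 0.06, Scd2 at -0.45 ± 0.09 and Smpdl3a at 0.73 ± 0.11. Scd2 did not pass without DC 2, DC 3, RC 1 or RC 2 (0.053 to 0.065), and with array weights 5 of the 11 genes were lower. Between RC and CC, Srebf1 was lower (-0.30 ± 0.06; adjusted p = 0.037), the only call of the 11. That call of Srebf1 ended without any CC or RC array and without DC 2 (0.051 to 0.15).

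Among 17 other genes of sterol handling, 3 fell in DC and 1 rose, where 4.32% of all rows were lower and 2.31% higher. The caveolin gene Cav1, which encodes a cholesterol-binding coat protein of membrane pits, fell by 1.23 ± 0.08 (2.35-fold; adjusted p = 3.4e-06). Lipa, the lysosomal lipase that frees cholesterol from lipoprotein esters, fell by 0.71 ± 0.12, and the HDL receptor gene Scarb1 fell by 0.34 ± 0.06. Stard4, a sterol carrier gene that SREBPs induce, rose by 0.63 ± 0.09. In RC against DC only Stard4 passed (-0.50 ± 0.09; adjusted p = 0.0071), and in RC against CC only Cav1 (-0.997 ± 0.083; adjusted p = 0.00034). The count lower in RC than in CC was 3 without DC 4, 2 without RC 3 and 7 of 17 with array weights, which also gave 7 lower in DC than in CC. Without DC 1 a single gene was higher in RC than in DC, and 4 were lower in DC than in CC. Other transporters of the ABCA family, Abca2 (0.00), Abca5 (-0.07) and Abca7 (-0.06), did not pass in DC. In RC they were at -0.15, -0.01 and -0.22 relative to DC, and at -0.15, -0.08 and -0.29 relative to CC. These did not pass either, with Abca7 relative to CC closest (limma adjusted p = 0.065). The Scarb1 call ended without DC 2, DC 4 and RC 3 together (0.054) and with only CC 3 and CC 4 as controls (0.089).

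No substrate or partner of Mylip passed. Of the 5 measured, the receptor gene Vldlr was at 0.50 ± 0.15 in DC against CC (adjusted p = 0.084) and -0.55 ± 0.15 in RC against DC (adjusted p = 0.099), and Lrp8, which encodes ApoER2, was at -0.11 ± 0.06 in DC. The ubiquitin-conjugating partner gene Ube2d3 was at 0.06 in RC relative to DC and 0.04 relative to CC, where Lrp8 was at -0.08. Vldlr passed in both comparisons without DC 4 (0.0079 and 0.0090), with array weights (0.016 and 0.017) and with quantile normalization (0.024 and 0.036). Of the 6 other acyltransferases that remodel phospholipids, 3 fell in DC, namely Mboat1 (-0.68 ± 0.09), Lpcat4 (-0.60 ± 0.08) and Mboat7 (-0.39 ± 0.09), and 0 rose, while Lpcat3 was at 0.11. The list median was -0.25, and 4.32% of all rows were called lower in DC than in CC. Mboat7 did not pass without CC 1, CC 3, CC 4, DC 2 or DC 4 (0.051 to 0.075). In RC against DC none of the 6 passed, with Mboat1 at 0.36 ± 0.09 (0.058, and 0.015 without RC 3). Lpcat4 was lower in RC than in CC (-0.39 ± 0.08; adjusted p = 0.039), a call lost in 9 of the 12 fits that left out 1 array (up to 0.14), while array weights gave 3 of 6 lower.

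For the SREBP-2 side, 6 measured target genes (Hmgcs1, Idi1, Sqle, Lss, Nsdhl and Insig1) were all higher in DC than in CC and all lower in RC than in DC. This list was chosen with that result known. Its medians were 1.23 and -0.89, set beside 0.67 and -0.80 for Abca1 and 0.62 and -0.37 for Mylip. Abca1 and Mylip, the 2 of 7 genes that were called, moved in the direction of the SREBP-2 targets in both comparisons. The other 5 did not pass in either. Since the list and the 2 genes were both picked by their results, this shared direction is a description with no test. In RC 1 of the 6, the early synthesis gene Hmgcs1, was above CC (0.62 ± 0.10; adjusted p = 0.022), and 5 did not pass, with values from -0.06 for Sqle to 0.46 for Idi1. That count was 2 without DC 4, 3 with quantile normalization or the interquartile range as a covariate, and 4 with array weights. The Hmgcs1 call ended without CC 1, CC 3, CC 4, RC 1 or RC 2 (up to 0.088). Idi1 did not pass in RC against DC without DC 3 or RC 2 (0.054 and 0.053).

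**Figure D3:**
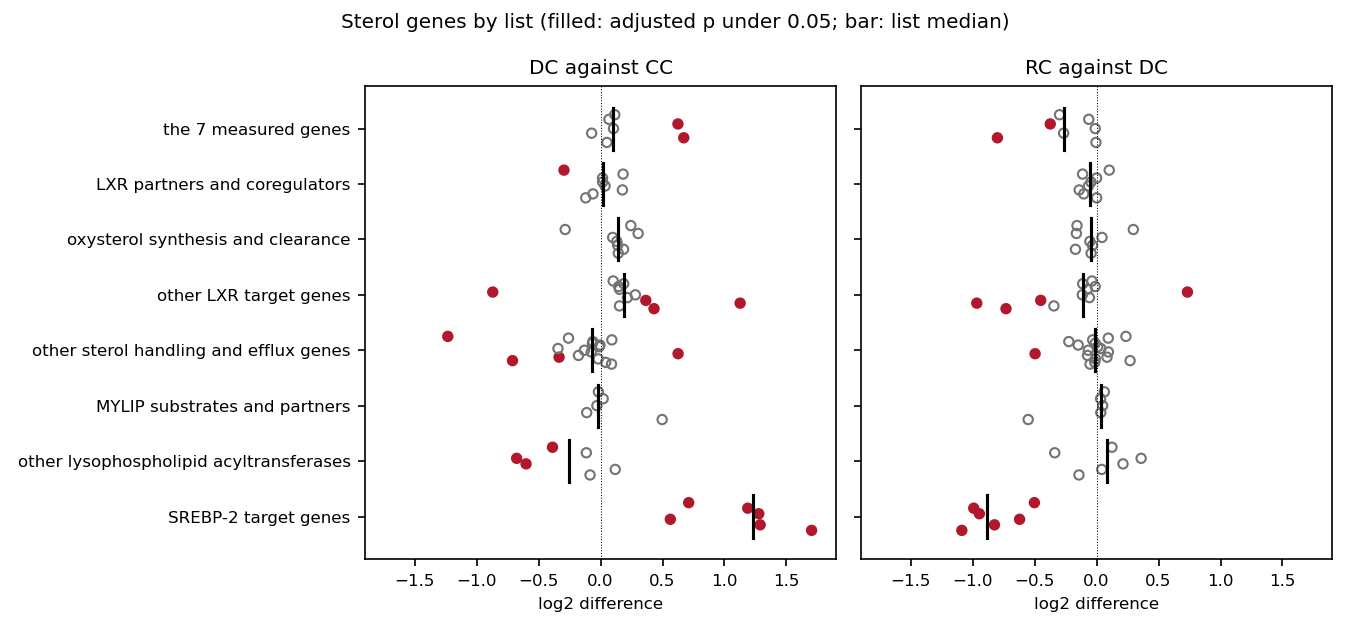
Log2 difference (horizontal axis, in log2 units) of each gene in the 7 measured genes and the 7 pathway lists, with DC minus CC and RC minus DC drawn apart; filled red points have an adjusted p under 0.05 and the black bar is the list median. The SREBP-2 targets lie wholly to the right in DC and to the left in RC, and the other 6 lists straddle 0.

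Genes of most like pattern were sought for the 2 genes with a call, by the root mean square difference over the 12 arrays between profiles centred on their own means, among 18794 rows. For Abca1 the closest were Phyhd1 (0.10 log2 units), Phactr1 (0.11) and Nipal1 (0.11), with means in DC above CC by 0.85, 0.77 and 0.59 and in RC within 0.08 of CC. For Mylip they were Syndig1l (0.08), the peroxisomal hydrolase gene Nudt7 (0.08) and Narf (0.08). Their RC means lay above CC by 0.15, 0.28 and 0.13 and below DC by 0.35, 0.31 and 0.40. Chosen for their pattern, these values are descriptions with no test.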

How the data were processed

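Total RNA of Min6 cultures was labelled as biotinylated cDNA and hybridised to Affymetrix Mouse Gene 1.0 ST arrays, per the labels' protocols and the platform annotation. The table holds 1 log2 value per probe set and array as deposited. The log2 scale was read from the range of 3.69 to 14.5. The sources used here do not name the summarising software, the normalization between arrays or the genome build, and no further normalization was applied. Detection calls were not used here.

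Rows were named through the platform annotation; 21789 carry 1 symbol, and 21698 of these matched a RefSeq gene table (GRCm38.p6) by gene identifier. limma 3.58.1 in R 4.3.3 fitted 1 mean per condition to all 12 arrays (9 residual degrees of freedom), with two-sided tests and Benjamini-Hochberg adjustment over all 35556 rows. The code was tested on simulated data. Errors of differences are moderated standard errors.

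All member genes are named, with the 3 most alike genes of each called member and, per list, up to 4 called genes of largest change or the 2 of smallest p; other list genes were chosen after their values were seen. Members and lists were chosen with earlier results of these data known. Genes of a list without a row of their own were not analysed here. Alternatives covered scaling, covariates, weights, filters, variance prior, replicate block and left-out arrays.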

Additional observations from a re-analysis of the deposited data

Results flagged for a closer look

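Of 21 groups of 4 arrays (7 genes in 3 conditions), 2 held an array far from its group by Dixon's ratio of gap to range at its 95% limit for 4 samples; chance passes it in about 1 of 20 groups. Mylip on DC 4 gave a ratio of 0.890, at 9.46 against 9.80 to 9.85 on the other DC arrays. Abcg1 on CC 2 gave 0.8291, just past the limit, within a group range of only 0.016 log2 units.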

How the results depend on the processing

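The rise of Abca1 and Mylip in DC and the fall of Abca1 in RC against DC passed under every alternative tried. Over these alternatives the Abca1 differences ran from 0.58 to 0.79 and from -0.91 to -0.71, and the Mylip rise from 0.57 to 0.72. No called difference changed sign.

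The count of members lower in RC against DC, 2, was 1 with common array medians, only the 2 groups compared, the replicate block, only CC 1 and CC 2, or only CC 3 and CC 4, each time because Mylip did not pass (adjusted p = 0.053 with the block). It was 3 with quantile normalization, where Lpcat3 passed (limma adjusted p = 0.048), and 4 with array weights. For RC against CC, 1 member was higher with array weights or without DC 2, DC 4 and RC 3, and 1 was lower with array weights. Leaving out single arrays gave 1 to 3 lower members in RC against DC, where Abcg1 joined without DC 4, and 0 to 1 higher members in RC against CC.

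Same-numbered arrays of different groups did not deviate together (correlations from -0.36 to 0.47 over 12 pairs), so replicate numbers were not taken as pairs. With the replicate block the RC against CC count of rows was 68 in place of 283.

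Counts over all rows moved more. DC against CC, 2360, became 4840 with array weights, 1568 with only CC 1 and CC 2 and 991 with only CC 3 and CC 4, and ran from 1549 to 3718 with single arrays left out. RC against DC, 936, became 1737 with the interquartile range as a covariate, 6413 with array weights and 462 with only these groups, and ran from 522 to 2892 with single arrays left out. RC against CC ran from 57 to 352 with single arrays left out and became 636 with that covariate, 2818 with array weights, 439 with rows above the median, 580 without DC 2, DC 4 and RC 3, 18 with only CC 1 and CC 2 and 23 with only CC 3 and CC 4. The causes were not tested. Nr1h3 dropped out of the filter on low rows, and no member gene had a second row to try. Of the list genes, Idi1 and Ube2d2a had 2 rows and Ube2d3 had 3, and only the row of highest mean was used.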
